A study of Sus scrofa with 34 samples.

Results

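The genes of the endoplasmic reticulum (ER) stress response were followed in the liver and ileum of weaned crossbred piglets of both sexes. The 10 genes named were HSPA5, XBP1, HERPUD1, DNAJB9, ATF4, ATF3, DDIT3, TRIB3, ASNS and CHAC1, and the rows whose pig Ensembl symbol was 1 of these were taken. Of the 25880 genes in the count tables, 8 carried such a symbol, and ATF4 and DDIT3 were not analysed here. The piglets were fed for 28 days a control diet, the same diet with a phytogenic feed additive (PFA) based on essential oils, a diet with oxidized oil (OO), or the oxidized oil diet with the additive (OO + PFA). RNA was sequenced from the liver of 6 pigs per diet and from the ileum of 5 control and 5 PFA pigs, each library from a single pig, and for all 10 ileum samples a liver library of the same animal was at hand. The liver library of OO + PFA pig 77 was left out of all tests, so that 23 livers were fitted. The study set aside 1 OO + PFA liver on suspicion of RNA degradation without naming the pig, and pig 77 was taken to be that animal. The pigs of a diet shared a single pen, so effects of pen and diet cannot be told apart. By the study's feed formulation, the oxidized oil was added to a normal diet whose other ingredients were thinned. The oil diets thus held more fat and energy and less of the protein feeds and added amino acids. Effects of oil oxidation, added fat and these lower shares cannot be told apart. In whole tissue, fewer cells of a type and less RNA per cell cannot be told apart either.

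When unfolded proteins collect in the ER, the sensors IRE1, PERK and ATF6 start the unfolded protein response. IRE1 splices the mRNA of XBP1, and XBP1 and ATF6 then switch on chaperones such as HSPA5 (BiP) and DNAJB9 (ERdj4) and degradation factors such as HERPUD1. PERK phosphorylates eIF2 alpha, which favours translation of ATF4, a factor that GCN2, PKR and HRI can also call up through the same phosphorylation when amino acids run short or under other stresses. ATF4 targets include the stress factors ATF3 and DDIT3 (CHOP), the pseudokinase TRIB3, asparagine synthetase ASNS and the glutathione-degrading enzyme CHAC1. The liver, as a secretory organ, keeps a large ER. The gene counts used here do not separate the spliced from the unspliced XBP1 mRNA, nor do they measure the ATF4 protein.

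The DNA letters bound by these factors are known from other work, and the 250 bases upstream of the RefSeq start of each gene (Sscrofa11.1) were searched for them on both strands. The sequences of CHAC1 and XBP1 are shown because they were the windows among the 8 that held a match, 1 from each arm of the response. In CHAC1 (chr1:130363333-130363582, minus strand) the capitals mark the C/EBP-ATF response element TGATGNAA, which lay on the opposite strand 165 to 158 bases before the start. In XBP1 (chr14:46016527-46016776, minus strand) the capitals mark the ER stress response element, CCAAT and CCACG with 9 bases between them, 82 to 64 bases before the start.
CHAC1: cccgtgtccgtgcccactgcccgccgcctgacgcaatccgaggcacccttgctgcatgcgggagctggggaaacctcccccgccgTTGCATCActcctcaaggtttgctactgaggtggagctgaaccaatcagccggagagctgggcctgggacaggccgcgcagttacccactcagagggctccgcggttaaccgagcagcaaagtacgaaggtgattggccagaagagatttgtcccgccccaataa
XBP1: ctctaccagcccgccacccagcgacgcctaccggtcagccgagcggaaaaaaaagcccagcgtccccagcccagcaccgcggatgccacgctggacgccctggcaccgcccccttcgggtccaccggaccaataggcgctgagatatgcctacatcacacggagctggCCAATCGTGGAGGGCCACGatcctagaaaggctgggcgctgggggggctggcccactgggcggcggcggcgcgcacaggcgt
The response element of ATF4 was found in 1.85% and the ER stress element in 0.0806% of 13650 pig promoter windows of this length. The shorter ER stress element II (ATTGG, 1 base, CCACG; 0.0879% of windows) and the cyclic AMP element TGACGTCA (2.07%) were not found in the windows of these 8 genes, and the first 2 motifs were not found in the windows of the other 6 genes. These matches describe the letters and not the binding of a factor. The search used exact letters and only the outermost RefSeq start of each gene. An element with a changed letter, farther away or at another start would be missed. The search therefore does not show that a gene lacks an element.

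In Sscrofa11.1 the genes of the folding side lie at chr1:265930044-265934959 (HSPA5, ENSSSCG00000005601), chr14:46011239-46016526 (XBP1, ENSSSCG00000030996), chr6:18901171-18913427 (HERPUD1, ENSSSCG00000040663) and chr18:36578928-36584211 (DNAJB9, ENSSSCG00000016653). The ATF4 targets lie at chr9:130772259-130829678 (ATF3, ENSSSCG00000015595), chr17:34808273-34819592 (TRIB3, ENSSSCG00000039862), chr9:77318341-77336290 (ASNS, ENSSSCG00000015340) and chr1:130360510-130363332 (CHAC1, ENSSSCG00000038521). HERPUD1 is on the plus strand and the others are on the minus strand, and the counts are over the exons of each gene.

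Between 18738055 and 42446834 read pairs per library were counted on genes in the liver (median 26678888) and between 18772230 and 24338165 in the ileum (median 20503630). Levels are given as CPM, the counts of a gene relative to library sizes scaled by the TMM method within a tissue. The hepatocyte markers ALB, APOA1, TTR, APOB, CYP2E1 and TAT were all counted in the liver and summed to between 75816 and 167550 CPM. In the ileum they summed to between 3099 and 7638 CPM. There TTR and CYP2E1 had no count in any library and the other 4 were counted. The 4 enterocyte markers found summed to between 9442 and 15813 CPM in the ileum and to at most 916 CPM in the fitted livers. The titles of the liver libraries had 2 forms, PigLiv (4 control, 3 PFA, 3 OO and 4 OO + PFA pigs) and PL (2, 3, 3 and 1), and the fits within a form are given for the genes called.

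Per kilobase of exon, HSPA5 had the highest level of the 8 genes in both tissues, with a median of 204 CPM per kb over 23 livers and of 247 over 10 ilea. XBP1 followed (medians of 95.2 in the liver and 133 in the ileum), then HERPUD1 (50.1 and 34.8) and DNAJB9 (16.8 and 21.3). The ATF4 targets were far lower, with medians of 4.55 for ASNS, 4.33 for TRIB3, 3.46 for ATF3 and 0.404 for CHAC1 in the liver. In the ileum ASNS stood at 11.2, ATF3 at 6.87, TRIB3 at 5.46 and CHAC1 at 0.240 CPM per kb. These levels were scaled within each tissue and are not set against each other across the tissues. Within a library, HSPA5 was above XBP1, XBP1 above HERPUD1, HERPUD1 above DNAJB9 and ATF3 above CHAC1 in all 23 livers. DNAJB9 was above ASNS in 20 of 23 livers, TRIB3 above ATF3 in 19 and ASNS above TRIB3 in 12, so the last of these pairs had no set order. Over all livers XBP1 varied least, with a coefficient of variation of 18.2%, and ATF3 (117%) and CHAC1 (115%) varied most. The lowest counts behind these values were 3 read pairs for CHAC1 in the liver, so its levels are the least precise.

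The first question was whether the oxidized oil moved these genes in the liver. Over the 4 diets 3 of the 8 genes passed the test, namely ASNS (adjusted p = 4.4e-05), TRIB3 (adjusted p = 0.0109) and ATF3 (adjusted p = 0.0278), where 3.66% of the 13831 genes tested passed. CHAC1 was just outside (adjusted p = 0.071). All p-values for single genes are from edgeR's quasi-likelihood test, adjusted by the Benjamini-Hochberg method over all genes kept, and the limit for a call was an adjusted p of 0.05. For OO against control 2 of the 8 genes rose, ASNS and TRIB3, and none fell, where 1.37% of all genes rose and 1.34% fell. For OO + PFA against control the same 2 genes passed and rose (4.09% of all genes rose and 0.991% fell). With both oil diets set against both diets without oil, ASNS, TRIB3, CHAC1 and ATF3 rose, 4 of 8, where 8.95% of all genes rose and 2.83% fell. After a correction of each library for GC content, 536 genes rose and 529 fell in this last comparison, in place of 1238 and 392, and ASNS, TRIB3 and ATF3 were still called. The same correction gave 319 higher and 491 lower genes for OO against control (190 and 185 without it; 185 and 274 with DESeq2 size factors) and 382 and 368 for OO + PFA against control (4.09% and 0.991% of genes without it, as above). These counts over all genes also moved with single pigs. For OO against control they lay between 103 higher and 64 lower genes (without OO pig 130) and 794 and 531 (without OO pig 97), with 530 and 318 without OO pig 74. For OO + PFA against control 191 genes were called without control pig 71 or 100 and 1127 without OO pig 97, in place of 702, and with oil pooled between 837 and 2672, in place of 1630. GC values were at hand for 11025 of the genes tested and for all 8 genes here. The slope of a library's log2 counts per 10 percentage points of GC lay between -0.20 and 0.08 in control, -0.47 and 0.07 in PFA, -0.38 and 0.42 in OO and 0.04 and 0.49 in OO + PFA pigs. The read pairs that fell on no gene, per 100 on genes, numbered 9.2 to 12.6 in OO and 12.97 to 23.5 in control pigs, with no overlap, 7.54 to 14.3 in PFA and 11.6 to 16.0 in OO + PFA pigs. The part of these measures in the results was not tested.

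ASNS makes asparagine from aspartate and glutamine and is a standard readout of ATF4. In the liver it lay between 3.57 and 8.43 CPM in the 6 control pigs (median 5.10) and between 5.71 and 7.67 CPM in the PFA pigs (median 6.48). With oxidized oil it lay between 11.0 and 20.8 CPM (median 16.8), and the 5 OO + PFA pigs had 16.5, 18.1, 14.6, 20.8 and 7.38 CPM. All 6 OO pigs were above all 6 control pigs, and 4 of 5 OO + PFA pigs were. The mean rose from 5.68 ± 1.84 CPM (SD, n = 6) in control to 16.8 ± 3.32 (SD, n = 6) in OO, a log2 fold change of 1.56 ± 0.22 (SE, adjusted p = 0.000152). For OO + PFA against control the log2 fold change was 1.45 ± 0.22 (SE, adjusted p = 0.00104), and leaving out any of the 23 pigs left both calls. Within the PigLiv libraries the OO change was 1.62 (adjusted p = 0.0116), and within the few PL libraries it was 1.41 (adjusted p = 0.0724). The lowest OO + PFA pig was the single PL library of that diet, and within PL, where this lone library was assumed to vary like the other diets, the OO + PFA change was 0.18 (adjusted p = 0.976), against 1.73 (adjusted p = 0.00836) within PigLiv. With both oil diets pooled ASNS rose by 1.40 ± 0.16 (SE, adjusted p = 3.27e-06), which was 1.47 (adjusted p = 0.00113) within PigLiv and 0.83 (adjusted p = 0.216) within PL.

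TRIB3 is a pseudokinase that ATF4 and CHOP induce and that binds the kinase AKT. It lay between 4.21 and 22.3 CPM in control pigs (median 8.90) and between 9.72 and 13.7 CPM in PFA pigs (median 11.4). In OO pigs it lay between 19.1 and 49.8 CPM (median 30.8), and the OO + PFA pigs had 33.1, 14.1, 26.1, 61.4 and 10.7 CPM. Of the 6 OO pigs 5 were above every control pig, and the sixth was passed only by control pig 71. The log2 fold change was 1.64 ± 0.37 (SE, adjusted p = 0.0166) for OO and 1.46 ± 0.38 (SE, adjusted p = 0.0309) for OO + PFA against control. The first held in all 23 fits that left out a pig. The second was lost without control pig 85, 100 or 110, OO + PFA pig 79 or the OO + PFA pig with 61.4 CPM, down to a change of 0.99 (adjusted p = 0.113) without the last. Within PigLiv and PL the OO change was 1.64 and 1.64, with adjusted p-values of 0.125 and 0.0724. The OO + PFA change was 1.65 (adjusted p = 0.0682) within PigLiv and 0.06 (adjusted p = 0.991) within PL. Pooled over both oil diets it was 1.47 ± 0.26 (SE, adjusted p = 0.00118), with 1.52 (adjusted p = 0.0257) within PigLiv and 0.81 (adjusted p = 0.388) within PL.

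CHAC1 breaks down glutathione and was counted from few reads. Control pig 71 had 2.64 CPM and the 5 other control pigs lay between 0.0828 and 0.415 CPM, from 3 to 11 read pairs, while the PFA pigs lay between 0.145 and 0.637 CPM. The OO pigs lay between 0.761 and 5.34 CPM (median 1.37), and the OO + PFA pigs had 0.884, 1.68, 0.765, 2.15 and 0.527 CPM. Thus 11 of 11 pigs on oil were above the mean of the pigs without oil, 0.493 CPM. With both oil diets pooled the log2 fold change was 1.77 ± 0.48 (SE, adjusted p = 0.0222), a call that was lost after the GC correction (1.55, adjusted p = 0.063) and within PigLiv or PL (1.69 and 1.71, adjusted p = 0.0891 and 0.737). OO against control gave 1.73 ± 0.65 (SE, adjusted p = 0.127), and 3.07 (adjusted p = 0.00385) without control pig 71. OO + PFA against control gave 0.96 ± 0.68 (SE, adjusted p = 0.438), and 2.31 (adjusted p = 0.0479) without the same pig.

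ATF3 is a stress-induced transcriptional repressor. It lay between 2.68 and 17.3 CPM in control pigs (median 5.79), between 2.4 and 9.07 CPM in PFA pigs (median 4.43) and between 4.36 and 11.6 CPM in OO pigs (median 9.32). The OO + PFA pigs had 7.7, 41.6, 7.65, 16.0 and 59.8 CPM. The OO values lay inside the control range, and the high values belonged to OO + PFA pig 98 and to the PL pig of that diet. The log2 fold change was 0.08 ± 0.50 (SE, adjusted p = 0.945) for OO against control, for OO + PFA against control 1.70 ± 0.53 (SE, adjusted p = 0.0595), and for OO + PFA against PFA 2.44 ± 0.54 (SE, adjusted p = 0.0212). The pooled change with oil was 1.26 ± 0.37 (SE, adjusted p = 0.0297). The call was lost without 1 OO pig (10.3 CPM), OO + PFA pig 98, the PL pig of that diet or PFA pig 67, with adjusted p-values up to 0.073. Within PigLiv it was 0.92 (adjusted p = 0.206). Within PL it was 2.28 (adjusted p = 0.0131), but there the OO + PFA arm is the single pig with 59.8 CPM. The OO + PFA pig with the PL title thus had the highest ATF3 of the 5 fitted pigs of its diet together with the lowest ASNS, TRIB3 and CHAC1.

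**Figure D1:**
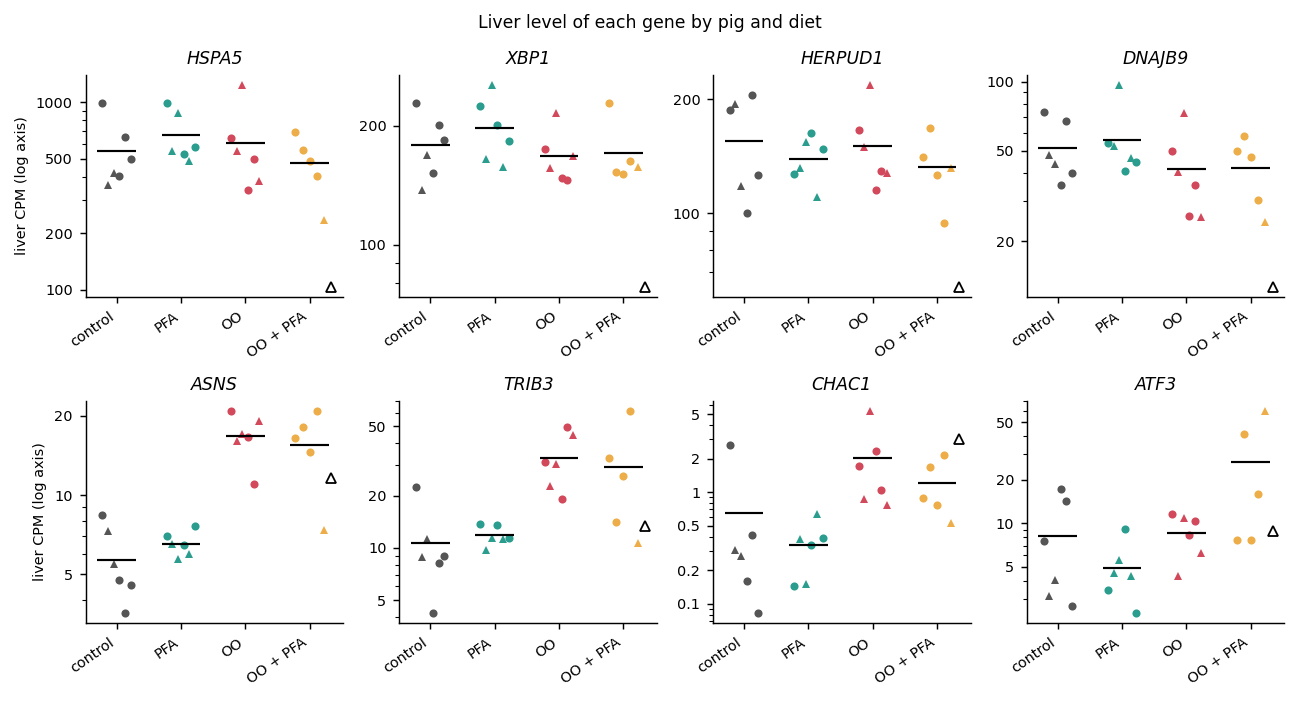
Liver CPM on a log axis of the 8 genes for each pig, by diet. Circles are PigLiv and triangles PL libraries, lines are means, and the open triangle is the left-out OO + PFA pig 77. ASNS of every OO pig lies above every control pig, while the 4 upper genes overlap between all diets.

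The OO + PFA and PFA pigs form a second set of livers with and without oil, which shares no library with OO against control. All 4 diets were fitted together, so the p-values of this comparison also depend on the control and OO livers. In this second set ASNS and ATF3 rose, 2 of 8 genes, where 1.24% of all genes rose and 0.333% fell (172 and 46 genes, or 169 and 115 after the GC correction). The log2 fold change was 1.24 ± 0.22 (SE, adjusted p = 0.00409) for ASNS, 1.30 ± 0.38 (SE, adjusted p = 0.0782) for TRIB3 and 1.81 ± 0.70 (SE, adjusted p = 0.14) for CHAC1. Of the 5 OO + PFA pigs 4 were above every PFA pig for each of these 3 genes. When these 2 diets were fitted alone all 4 genes were called, but calls rose over all genes too. Of 13387 genes tested 755 were then higher and 208 lower, against 172 and 46 above. In that fit TRIB3 had an adjusted p of 0.0444 and CHAC1 of 0.0341. Within PigLiv none of the 4 was called, with adjusted p = 0.0681 for ASNS, where 30 of 13863 genes were called. ATF3 lost its call without OO + PFA pig 98, the PL pig of that diet or PFA pig 67 (adjusted p up to 0.0986). This comparison was chosen after the data had been seen.

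**Figure D2:**
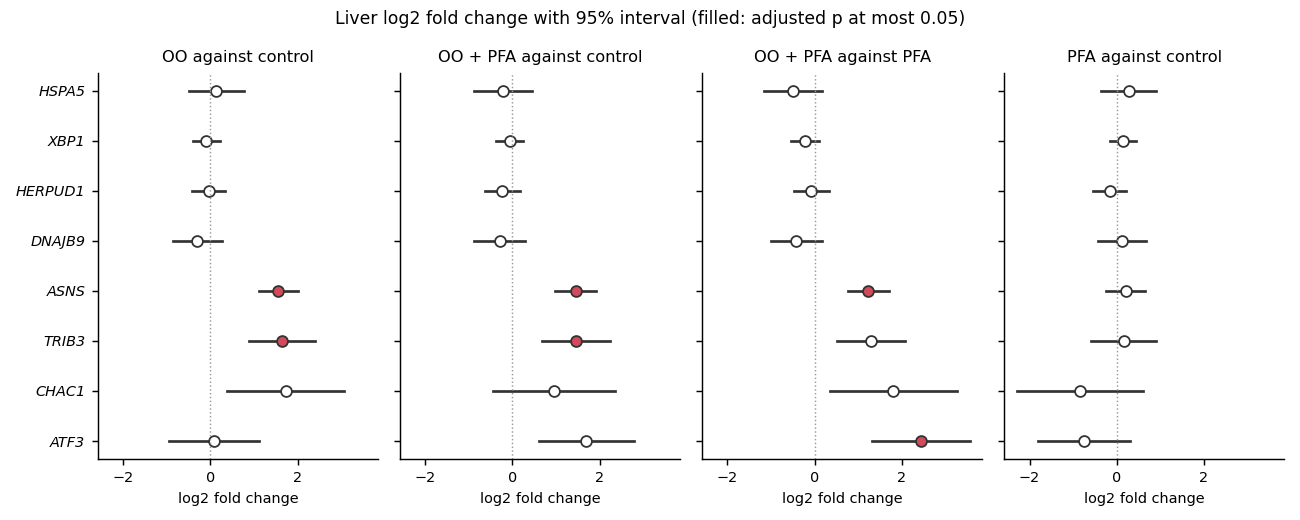
Liver log2 fold change of the 8 genes (rows) in 4 comparisons, with 95% intervals, filled where the adjusted p was at most 0.05. ASNS is filled in the 3 comparisons with oil, and the intervals of the 4 upper genes cross 0 in every panel.

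No test passed for the genes of the folding side in the diet comparisons of the liver. HSPA5, the main ER chaperone, lay between 361 and 987 CPM in control pigs (median 455), between 487 and 989 CPM in PFA pigs (median 562) and between 339 and 1240 CPM in OO pigs (median 520). The OO + PFA pigs had 693, 553, 482, 406 and 235 CPM. The 4 diets overlapped, and the highest and the lowest value of the 23 livers both came from pigs fed oil. The log2 fold change of HSPA5 in OO against control was 0.14, with a 95% interval from -0.50 to 0.78, which leaves room for changes of either sign. It was -0.20 without OO pig 97 and -0.35 within PigLiv. With both oil diets pooled it was -0.18 (interval -0.64 to 0.28, adjusted p = 0.659).

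XBP1, the transcription factor of the IRE1 arm, lay between 138 and 229 CPM in control pigs and between 146 and 216 CPM in OO pigs. Its pooled change with oil was -0.15 (interval -0.37 to 0.07). HERPUD1, a component of ER-associated degradation, lay between 100.4 and 205 CPM in control and between 115 and 218 CPM in OO pigs, and its pooled change was -0.06 (interval -0.33 to 0.22). For XBP1 and HERPUD1 these intervals exclude changes of the size seen for ASNS. DNAJB9, a cochaperone of HSPA5, lay between 35.3 and 74.2 CPM in control and between 25.6 and 73.0 CPM in OO pigs, and 4 of 11 pigs on oil were below every pig without it. Its pooled change was -0.36 (interval -0.77 to 0.05, adjusted p = 0.241). In OO against control the log2 fold changes were -0.09 for XBP1, -0.04 for HERPUD1 and -0.30 for DNAJB9 (adjusted p = 0.763, 0.921 and 0.544). The upper bounds of all 4 pooled intervals lie below the lower bound for ASNS, 1.08, but the difference between genes was not tested. After the GC correction the pooled changes were -0.12 for HSPA5, -0.11 for XBP1, -0.007 for HERPUD1 and -0.26 for DNAJB9. Within diets their levels had r of -0.56, -0.46, -0.47 and -0.63 with the GC slope of the library. The part of GC content in these changes was not tested.

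The other genes of the pathway were taken from 8 lists, of which 97 genes were found in the count tables and 96 passed the count filter in the liver. The lists were written with earlier results of these data known, so their counts are a description. Over the 4 lists of the ER itself (sensors and proteases, folding, degradation, and secretory targets of XBP1), 3 of 54 genes tested were called with oil pooled, 2 higher and 1 lower, and the median log2 fold change was -0.19, against 0.01 over all genes, of which 8.95% rose and 2.83% fell. Over the 2 lists of the ATF4 program 18 of 33 genes were called, 16 higher and 2 lower, with a median of 0.43. For OO against control 0 of the 54 ER genes passed and 4 of 33 ATF4 genes rose and 1 fell (medians of -0.05 and 0.31, against 0.06 over all genes). In that comparison 1.37% of all genes rose and 1.34% fell, so 0 of 54 does not set the ER genes apart from all genes. For OO + PFA against control 1 of 54 and 10 of 33 rose, and none fell (4.09% of all genes rose and 0.991% fell). Of the cell type markers tested in the liver, the hepatocyte genes TAT (1.05, higher) and CYP2E1 (-0.42, lower), 2 of 6, MARCO of the Kupffer cells (0.81), 1 of 4, and APOA4 of the enterocytes (2.47), 1 of 3, were called with oil pooled, and none of the stellate cell, goblet cell, plasma cell and smooth muscle markers was. Their part in these values was not tested.

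Among the stress regulators of the ATF4 program 9 of 15 genes rose with oil pooled and none fell (8.95% and 2.83% over all genes). They included the stress cytokine GDF15 (log2 fold change of 2.88 ± 0.39 SE), DDIT4, an inhibitor of mTORC1 (1.24 ± 0.19), and the transcription factor CEBPB (1.17 ± 0.19). GDF15 was counted from few read pairs in most livers, so the size of its change is less certain. The called members in OO against control were FGF21, a liver hormone of fasting and stress (1.77 ± 0.44, adjusted p = 0.0305), and GDF15 (1.91 ± 0.52, adjusted p = 0.0472). For OO + PFA against control GDF15 (2.93), DDIT4 (1.36) and CEBPB (1.34) had the smallest p of 5 that rose, and against PFA they did so again (3.85, 1.60 and 1.51). Of all genes 4.09% rose against control and 1.24% against PFA. Among the amino acid genes 7 of 18 rose and 2 fell with oil pooled (8.95% and 2.83% over all genes), with the smallest p for SLC3A2, the heavy chain of amino acid transporters (0.85 ± 0.15), SHMT2, a mitochondrial enzyme of serine metabolism (0.45 ± 0.09), and the cysteinyl tRNA synthetase CARS1 (0.88 ± 0.20). For OO against control SLC3A2 (0.85) and the glycyl tRNA synthetase GARS1 (0.53) rose and cystathionine gamma-lyase CTH fell (log2 fold change of -0.60, adjusted p = 0.0453). For OO + PFA CARS1 (1.35), SLC3A2 (0.94) and SHMT2 (0.50) led 5 that rose against control, and SLC3A2 (0.85) and CARS1 (1.11) rose against PFA.

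Of the UPR sensors and proteases 1 of 5 tested was called with oil pooled, EIF2AK3, which encodes PERK, and it was lower (-0.41 ± 0.12, adjusted p = 0.0301), where 2.83% of all genes fell. For OO against control EIF2AK3 (-0.46, adjusted p = 0.113) and ERN1, which encodes IRE1 (-0.74, adjusted p = 0.13), had the smallest p and did not pass. For OO + PFA these were EIF2AK3 (-0.57, adjusted p = 0.0534) and ATF6B (0.31, adjusted p = 0.275) against control, and against PFA EIF2AK3 (-0.36) and ATF6B (0.26). Of the 3 other eIF2 alpha kinases none passed, and EIF2AK2 (PKR) and EIF2AK4 (GCN2) were at -0.31 and -0.14 with oil pooled (adjusted p = 0.245 and 0.401). For OO against control EIF2AK4 was at -0.39 and EIF2AK1 (HRI) at 0.06, and for OO + PFA EIF2AK2 and EIF2AK4 were at -0.45 and -0.19 against control and at -0.67 and 0.12 against PFA.

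Of the 18 folding genes tested P4HB, a protein disulfide isomerase, rose with oil pooled (0.60 ± 0.16, adjusted p = 0.024), where 8.95% of all genes rose, and 13 of 18 log2 fold changes were below 0. P4HB and the exchange factor SIL1 had the smallest p for OO against control (0.55 and 0.29, adjusted p = 0.164 and 0.209), P4HB (0.77) and MANF (-0.64) for OO + PFA against control, and CANX (-0.58) and P4HB (0.64) against PFA, none of them called. Of the 16 degradation genes NPLOC4, a cofactor of VCP, rose with oil pooled (0.43 ± 0.12, adjusted p = 0.0228) and in OO + PFA against control (0.57, adjusted p = 0.0478). EDEM2 (-0.34) and UBE2J1 (0.24) were next for OO against control, and NPLOC4 (0.59) and ERLEC1 (-0.42) against PFA, without a call. No secretory target of XBP1 was called with oil, where 14 of 15 pooled log2 fold changes were below 0 in the fit without a GC correction. The smallest p were those of SSR2 (-0.23, adjusted p = 0.0855) and SPCS2 (-0.22, adjusted p = 0.111). SSR2 (-0.25) and SEC61A1 (-0.21) led for OO and again for OO + PFA against control (-0.41 and -0.29), and SPCS2 (-0.36) and SPCS3 (-0.33) against PFA.

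The CREB3 family are transcription factors held in the ER membrane, and in the liver CREB3L3 (CREBH) controls genes of lipid metabolism. With oil pooled CREB3L3 (0.95 ± 0.10, adjusted p = 1.55e-06) and CREB3L1 (0.98 ± 0.21, adjusted p = 0.00578) rose and CREB3L2 fell (log2 fold change of -0.45 ± 0.10, adjusted p = 0.006), 3 of 6, where 8.95% of all genes rose and 2.83% fell. The same 3 were called for OO against control (0.99, 1.21 and -0.75; 1.37% of all genes rose and 1.34% fell). CREB3L3 (0.67) and CREB3L1 (1.12) rose in OO + PFA against control (4.09% of all genes), and CREB3L3 (0.91) rose against PFA (1.24%).

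**Figure D3:**
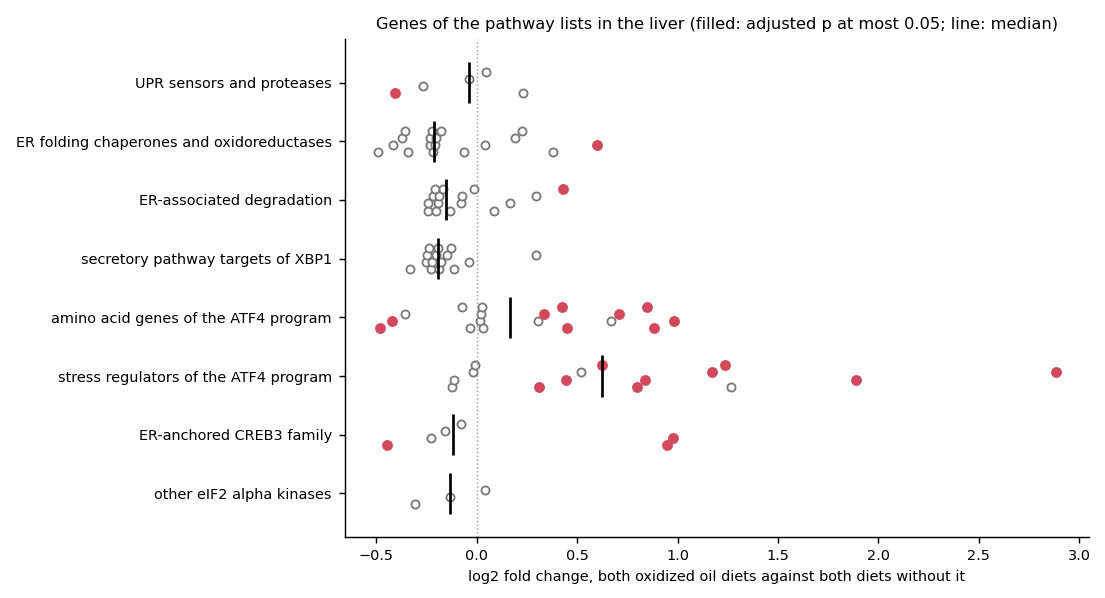
Log2 fold change in the liver of each gene of the 8 pathway lists (rows), both oil diets against both diets without oil. Filled points have an adjusted p of at most 0.05 and lines are medians, and most filled points to the right of 0 belong to the 2 lists of the ATF4 program.

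The second question was whether PFA altered these genes or their response to oil. For PFA against control in the liver none of the 8 genes passed, none had an unadjusted p under 0.05, and 0% of all genes were called (1522 genes had an unadjusted p under 0.05, and DESeq2 called 43 genes, none of the 8). The log2 fold changes of the 8 genes lay between -0.85 (CHAC1) and 0.27 (HSPA5), and those of ASNS and TRIB3 were 0.21 (interval -0.24 to 0.66) and 0.16 (-0.58 to 0.91). For OO + PFA against OO 0% of genes were called as well (1176 at an unadjusted p under 0.05, and 31 by DESeq2, none of the 8). ASNS was at -0.11 (interval -0.57 to 0.34) and TRIB3 at -0.18 (interval -0.95 to 0.59). Both were above 0 without the PL pig of OO + PFA, at 0.06 and 0.03. ATF3 was at 1.62 (interval 0.53 to 2.71, unadjusted p = 0.00534, adjusted p = 0.403), with 3 of 5 OO + PFA pigs above every OO pig, and it was the only gene of the 8 with an unadjusted p under 0.05.

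The interaction of oil and additive asks whether the change with oil differed between pigs with and without PFA. It was not called for any of the 8 genes, and 0% of all genes were called (1881 at an unadjusted p under 0.05, and 150 by DESeq2, none of the 8). The interaction was -0.32 for ASNS (interval -0.96 to 0.31) and -0.34 for TRIB3 (-1.42 to 0.73) on the log2 scale. For ATF3 it was 2.36 (interval 0.85 to 3.88, unadjusted p = 0.00372, adjusted p = 0.193). Leaving out 1 pig gave between -0.47 and -0.15 for ASNS and between -0.81 and -0.13 for TRIB3, none called. Within PL, with 1 OO + PFA library, they were -1.15 and -1.68 (adjusted p = 0.213 and 0.152).

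In the ileum PFA was compared with control in 5 pigs each, and 7 of the 8 genes were tested, since CHAC1 (4 to 28 read pairs per ileum) was too low for the count filter. None of the 7 was called and 0% of all genes were (401 genes at an unadjusted p under 0.05, and 4 by DESeq2, none of the 7). The first of these counts was 2026 without PFA pig 134 and 1004 without control pig 110, still with 0% called. HSPA5 was at 669, 556, 610, 622 and 547 CPM in the control pigs and at 603, 811, 748, 1101 and 825 CPM in the PFA pigs, so 4 of 5 PFA pigs were above every control pig. Its log2 fold change was 0.44 ± 0.15 (SE, unadjusted p = 0.0116), which did not pass over all genes (adjusted p = 0.991). XBP1 was at 0.23 ± 0.11 (SE, unadjusted p = 0.0638), with 3 of 5 PFA pigs above every control pig. Of the 55 ER genes tested 41 had a log2 fold change above 0 and none was called (median 0.10, against 0.02 over all genes), and of the 30 ATF4 genes 11 did. The summed enterocyte markers did not overlap between these groups, with 9442 to 11015 CPM in the PFA and 12202 to 15813 CPM in the control ileum, and their part in these values was not tested.

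The 10 pigs with both tissues allowed a comparison of ileum and liver within the same animals, on CPM scaled over both tissues together. The counts of pigs use this pairing, but the SE and p-values are from a fit without the pig as a block. Of the 8 genes 1 was higher and 5 lower in the ileum, where 40.6% of the 14982 genes tested were higher and 37.5% lower, so most genes differ between these tissues. The direction of several genes depends on this scaling. With plain library sizes, without TMM factors, the median log2 fold change of all genes moved from 0.05 to 1.17, and a gene is therefore also set against that median. HERPUD1 fell from between 148 and 297 CPM in the liver to between 51 and 72 CPM in the ileum, with no overlap and in 10 of 10 pigs, a log2 fold change of -1.85 ± 0.12 (SE, adjusted p = 1.18e-11). It was lower in 10 of 10 pigs with plain library sizes as well (-0.72, adjusted p = 8.16e-06). DNAJB9 (-0.996 ± 0.16, adjusted p = 1.01e-05), HSPA5 (-0.86 ± 0.16, adjusted p = 7.33e-05) and XBP1 (-0.80 ± 0.11, adjusted p = 6.56e-07) were lower in the ileum of 10 of 10 pigs on the joint scale, but not with plain library sizes, where they were at 0.15 (adjusted p = 0.313), 0.28 (adjusted p = 0.0991) and 0.33 (adjusted p = 0.00235) and higher in the ileum of 7, 8 and 9 of 10 pigs. On CPM scaled within each tissue they were higher in 6, 8 and 8 of 10. All 3 stayed below the median of all genes under either scaling. ASNS was higher in the ileum of 9 of 10 pigs, at 13.4 ± 1.58 CPM (SD, n = 10) against 8.90 ± 2.14 in the liver (log2 fold change of 0.59 ± 0.13 SE, adjusted p = 0.000365), and with plain library sizes in 10 of 10 (1.71).

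CHAC1 was lower in the ileum (-1.24 ± 0.47, adjusted p = 0.0226) in 7 of 10 pigs, but not past the test without pig 71 (-0.61, adjusted p = 0.0863) or pig 134 (-1.15, adjusted p = 0.0566). ATF3 (0.14 ± 0.31, adjusted p = 0.675) and TRIB3 (-0.29 ± 0.23, adjusted p = 0.247) did not pass. With plain library sizes CHAC1 was at -0.14 (adjusted p = 0.789), and ATF3 (1.25, adjusted p = 0.00106) and TRIB3 (0.83, adjusted p = 0.00223) were called higher. That scaling called 10923 of 14982 genes higher and 2075 lower. The median of all genes was then 1.17, close to ATF3 and above TRIB3, so these 2 calls do not set the genes apart. On the joint scale with the pig as a block, the same 6 of the 8 genes were called as without it. The PFA effect was not called as different between ileum and liver for any of the 8 genes, nor was it for the other genes, 0% of which were called (739 at an unadjusted p under 0.05 and 0 by DESeq2, and none of the 8 at either).

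**Figure D4:**
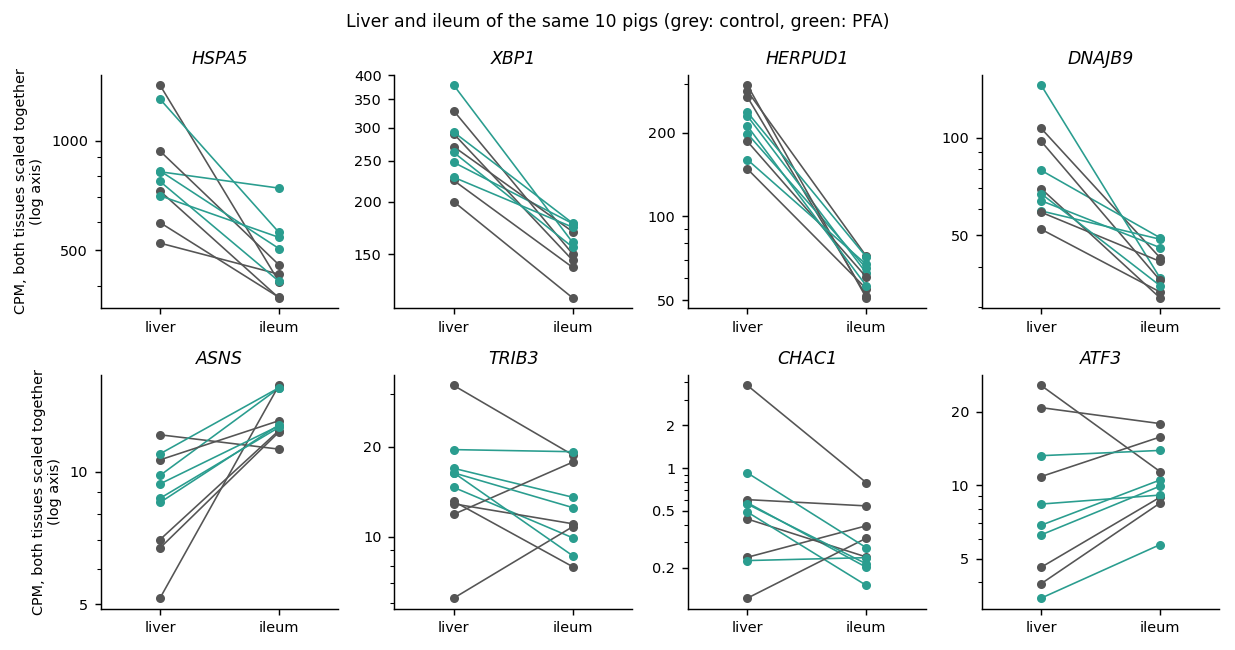
CPM on a log axis of the 8 genes in the liver and ileum of the same 10 pigs, both tissues scaled together, with a line per pig (grey control, green PFA). On this scale HSPA5, XBP1, HERPUD1 and DNAJB9 are lower in the ileum of all 10 pigs and ASNS is higher in 9. With plain library sizes HSPA5, XBP1 and DNAJB9 are higher in 8, 9 and 7 pigs, and HERPUD1 is lower in 10.

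Among the other genes of the pathway the direction depended on the scaling too. Of the 55 ER genes 42 were lower and 7 higher in the ileum on the joint scale (median -0.89, against 0.05 over all genes), and with plain library sizes 13 were lower and 28 higher (median 0.25, against 1.17). Over all 14982 genes 5621 were lower and 6078 higher on the joint scale, and 2075 and 10923 with plain library sizes. Under either scaling 47 of 55 lay below the median of all genes. The values that follow are on the joint scale. Folding genes were led by SIL1 (-2.35), PDIA6 (-1.59) and P4HB (-2.11), degradation genes by DERL2 (-1.18), EDEM2 (-1.10) and OS9 (-1.49), and secretory targets by SEC61A1 (-1.49), SEC61B (-1.31) and SSR2 (-1.41). Among the sensors and proteases MBTPS1, a protease that cuts ATF6, was lower (-1.44) and ERN1 too (-1.89), while ERN2, the intestinal form of IRE1, was higher in the ileum (6.36 ± 0.40 SE). The amino acid genes of the ATF4 program were split, with PSAT1 (-6.25), SHMT2 (-2.83) and PHGDH (-5.69) lower and 4 of 13 called genes higher. Of the stress regulators 8 of 11 called were lower, led by ATF5 (-6.90), NUPR1 (-5.65) and FGF21 (-7.47). FGF21 in the ileum and ERN2 in the liver were near 0 counts, so the size of these 2 changes depends on the fit. EIF2AK1 was lower (-0.45) and EIF2AK2 higher (0.75), and of the CREB3 family CREB3L3 (-1.998), CREB3L2 (-0.81) and CREB3 (-0.51) were lower. Of the genes named in these lists, EDEM2 (0.04), EIF2AK1 (0.67), CREB3L2 (0.31) and CREB3 (0.62) turned to above 0 with plain library sizes.

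It was then asked whether the genes moved together from pig to pig within a diet, on log2 CPM centred on the diet means, so that a diet effect cannot make a correlation. HSPA5 and DNAJB9 had r = 0.87 and rho = 0.86 over 23 livers (permutation p = 1e-05 for both, the smallest that 100000 permutations can give, adjusted 7e-05 over 14 tests). HSPA5 and XBP1 had r = 0.79 and rho = 0.72 (permutation p = 3e-05 and 0.00015, adjusted 0.00014 and 0.000525). HSPA5 and HERPUD1 had r = 0.55 and rho = 0.53 (permutation p = 0.00632 and 0.01, adjusted 0.0177 and 0.0233), and ASNS and CHAC1 had r = 0.50 and rho = 0.51 (permutation p = 0.0165 and 0.0138, adjusted 0.0289 and 0.0276). The permutations shuffled the centred values over all livers and took no account of the diet means removed. These p-values are therefore somewhat too small, which matters most for ASNS and CHAC1. Without the 2 pigs farthest from the median of the first gene, r was 0.82, 0.70, 0.38 and 0.30, so the last 2 relations rested in part on those pigs. Within the 14 PigLiv and 9 PL libraries r was 0.85 and 0.93 for DNAJB9, 0.79 and 0.77 for XBP1, 0.59 and 0.60 for HERPUD1, and 0.65 and 0.24 for ASNS with CHAC1. After the GC correction r was 0.83, 0.75, 0.46 and 0.31.

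In the 10 ilea HSPA5 was not found to move with these genes, with r = -0.03 for DNAJB9, -0.05 for XBP1 and -0.15 for HERPUD1 (rho of -0.03, -0.09 and -0.14; permutation p = 0.928, 0.881 and 0.694 for r and 0.945, 0.813 and 0.708 for rho, all adjusted 0.945). Without the 2 farthest pigs r was -0.29, -0.24 and -0.01. Whether the tissues differ in this was not tested.

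The genes whose liver pattern was most like that of HSPA5, by r of diet-centred log2 CPM over 23 livers among 13830 genes, were HSP90B1 (r = 0.96), DNAJB11 (0.94), ENSSSCG00000034072 (0.94), PDIA3 (0.93) and ENSSSCG00000013380 (0.91), of which HSP90B1, DNAJB11 and PDIA3 belong to the folding machinery of the ER. In the ileum the r of these 5 with HSPA5 lay between 0.66 and 0.92. The genes most like ASNS were ADAT2 (r = 0.78), ENSSSCG00000034715 (0.73), AATF (0.71), DUS4L (0.69) and INPP5B (0.69), with r between -0.10 and 0.63 in the ileum. The 2 orders come from a search over all genes and are given without a test.

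**Figure D5:**
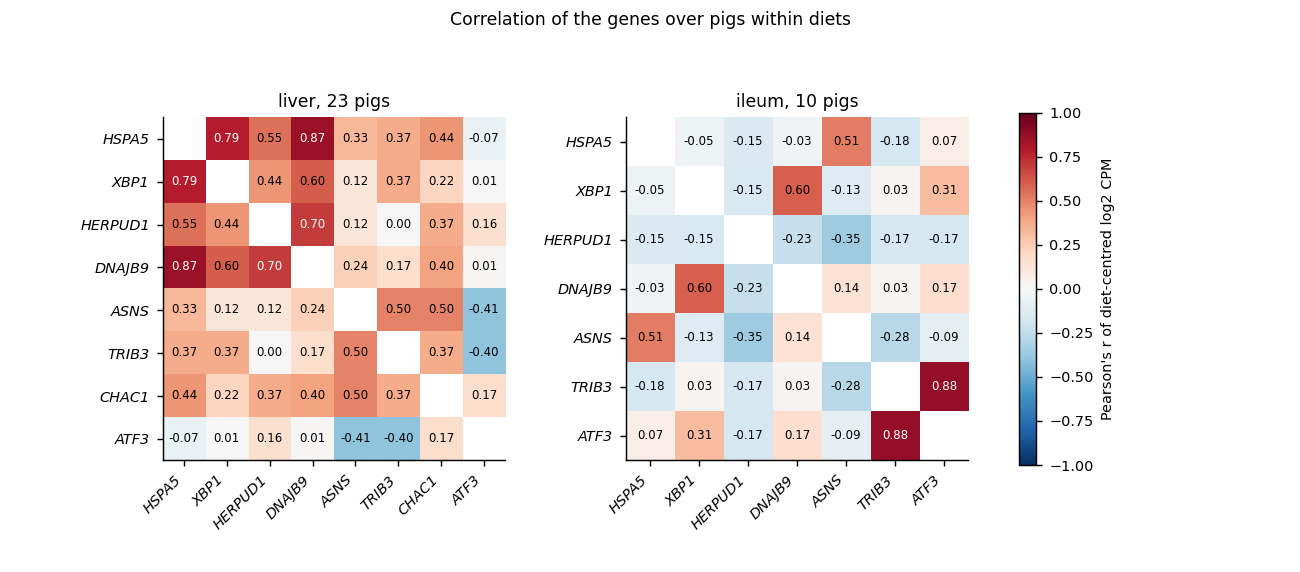
Pearson's r between the genes over 23 livers and 10 ilea, on diet-centred log2 CPM, from blue (-1) to red (1). In the liver HSPA5 is red with DNAJB9 (0.87) and XBP1 (0.79), and in the ileum these cells are near 0.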

How the data were processed

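Paired-end RNA-Seq reads of 24 livers and 10 ilea were aligned by the authors with STAR 2.6.1d to Sscrofa11.1 and counted per Ensembl gene with HTSeq, and the values deposited are these raw counts, without normalization. The annotation release and the strand option are not given in the sources used here. The 10 genes and all gene lists were chosen with earlier results of these data known. Symbols came from a gene name table (14857 of 25880 genes), and exon lengths, positions and promoter windows from RefSeq on the same build. Rows that name no gene were left out of library sizes. Counts were analyzed with edgeR 4.0.16 in R 4.3.3 (TMM, filterByExpr, two-sided quasi-likelihood test, p-values adjusted by Benjamini and Hochberg), the livers of all diets sharing 1 estimate of the spread. The SE was derived from the quasi-likelihood statistic, and 95% intervals from the SE and the t distribution with the degrees of freedom of that test. The p-values measure the spread between pigs that shared a pen within a diet. The fits were tested on simulated counts with known changes. All 8 genes were named in every comparison, and of each pathway list the 3 called genes with the smallest p, or 2 uncalled ones for the oil comparisons. The 5 genes most like HSPA5 and ASNS were named by r. Alternatives were DESeq2 1.42.0, DESeq2 size factors, plain library sizes for ileum against liver (added after seeing the data), no filter, a stricter filter (every library with 10 counts or more), a lowess GC correction, a term for the form of the title or each form alone, all 24 livers, the compared diets alone, the pig as a block, and leaving out each pig. Depth refers to the read pairs assigned to genes, and counting error is largest for CHAC1.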

Additional observations from a re-analysis of the deposited data

Results flagged for a closer look

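In 48 groups of 5 or 6 pigs, 5 values stood apart from the rest of their group by Dixon's criterion at the 95% level, where chance alone gives about 1 in 20 groups. They were those of OO pig 97 for HSPA5 (1240 CPM) and CHAC1 (5.34 CPM), OO + PFA pig 79 for XBP1 (229 CPM), PFA pig 95 for DNAJB9 (97.4 CPM) and control pig 71 for CHAC1 (2.64 CPM), all in the liver and all the highest of their group. The liver library of OO + PFA pig 77, which no test above used, had ASNS at 11.6 CPM and CHAC1 at 3.01 CPM, both above all 6 control pigs. Per 100 read pairs on genes, 36.6 had no unique place in this library. Its top 10 genes held 48.3% of its counts, and both values were the highest of the livers. The study suspected RNA degradation in the liver it left out, so these levels are uncertain. In the same library HSPA5 was at 104 CPM and DNAJB9 at 12.7 CPM, below every fitted liver.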

How the results depend on the processing

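Among the counts of called genes of the 8, 289 alternative values stayed within 1.5 times the reported one and 19 did not. Within PigLiv alone 1 gene was called over the 4 diets, 1 for OO against control, 1 for OO + PFA against control (each time ASNS), 2 with oil pooled (ASNS and TRIB3) and 0 for OO + PFA against PFA. Over all 13863 genes tested PigLiv alone gave 157 for the 4 diets, 114 for OO against control and 237 for OO + PFA against control. It gave 1568 with oil pooled and 30 for OO + PFA against PFA. Within PL alone 0 were called for OO against control, where 8 of 14179 genes were. On the single OO + PFA library of PL, ATF3 changed by 4.01 against control, 3.06 against OO and 3.61 against PFA, and by 2.28 with oil pooled. OO + PFA and PFA fitted alone gave 4, where 963 of 13387 genes tested were called. Leaving out 1 pig gave between 1 and 3 genes for OO + PFA against control and between 1 and 2 against PFA. Over all genes it gave between 191 and 1127 against control and between 103 and 411 against PFA. The cause of these changes was not tested, but the title forms alone hold fewer pigs.

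Apart from ileum against liver, the signs that turned all belonged to values that were not called, among them TRIB3 for OO + PFA against PFA within PL (-0.0318). Within PL they were 0.00983 for HERPUD1 with oil pooled, 0.19 for XBP1 and 0.0502 for HERPUD1 in OO against control, and -0.0788 for ASNS and 0.47 for CHAC1 in PFA against control. Within PigLiv they were 0.00658 for TRIB3 and 0.12 for ASNS in OO + PFA against OO, and -0.35 for HSPA5 and -0.0466 for ATF3 in OO against control. Leaving out 1 pig gave -0.65 to 0.029 (TRIB3) and -0.25 to 0.0617 (ASNS) for OO + PFA against OO. It gave -0.20 to 0.39 (HSPA5), -0.18 to 0.0554 (HERPUD1) and -0.0901 to 0.45 (ATF3) for OO against control, and -0.00565 to 0.51 (TRIB3) and -1.11 to 0.50 (CHAC1) for PFA against control. For ileum against liver plain library sizes gave 0.28 (HSPA5), 0.33 (XBP1, called), 0.15 (DNAJB9) and 0.83 (TRIB3, called), while the median of all genes moved to 1.17, and 5 of the 8 genes were called in place of 6. Over all 14982 genes tested 12998 were then called, in place of 11699. After the GC correction the ileum r of HSPA5 was 0.0923 with HERPUD1 and 0.16 with DNAJB9.

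ATF3 passed for OO + PFA against control with DESeq2 (adjusted p = 0.0173), after the GC correction (adjusted p = 0.0426) and without 1 OO + PFA pig (7.65 CPM of ATF3) or control pig 92. Over all genes DESeq2 called 1776 for the 4 diets (506 with edgeR, 297 to 1450 without 1 pig), 1079 for OO against control (375), 1370 for OO + PFA against control (702) and 697 for OO + PFA against PFA (218). The replicate block, with the pig as the block because both tissues came from the same animals, gave 6 called genes for ileum against liver, as without it, 11720 over all genes against 11699, and it changed no other call. Depth limits CHAC1 most.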
